A study of Rattus norvegicus with 7 samples.

Results

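Transcript levels in NRK-52E cells, an established epithelial line from rat kidney, were compared between cultures given siRNA 3488, directed at the rat gene Adamts16, and cultures given a scrambled siRNA of the same kind. The comparison uses 5 of the 7 arrays of the series, chosen by the siRNA named in the sample titles: 2 arrays of siRNA 3488 and 3 arrays of the scrambled control. The other 2 arrays, of a second Adamts16 siRNA named 2600, entered the shared estimate of the spread. They also entered the mean signal over the 7 arrays, by which probe sets were filtered, ranked and centred for brightness. They are quoted beside a gene where they bear on it. Each array holds the RNA of 1 independent culture, per the series' design text. All cultures were kept in 10% serum, seeded at 20% confluence, left for 6 h to attach, and then given 100 pmol of duplex per ml by lipofection. RNA was taken after 48 h, and 5 ug of it was made into biotin-labelled cRNA for an Affymetrix rat expression array. No untransfected culture was analysed here, so what the scrambled duplex itself did cannot be told apart from the resting state of the line.

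Adamts16 encodes a secreted zinc metalloprotease of the ADAMTS family, enzymes with thrombospondin repeats that act on proteins of the extracellular matrix. Per the series' title, variants of the gene are linked to inherited hypertension, and the arrays ask what lowering it does in kidney epithelial cells. An siRNA is a short duplex whose antisense strand is loaded into an Argonaute protein and pairs with its target along its length. Bases 2 to 8 of that strand, the seed, can also pair with other transcripts in the way a microRNA does, so that a single siRNA can lower messages unrelated to its target.

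The strands as the labels give them are shown because both groups received a duplex and the seeds differ between them; each carries a 2-base overhang written dTdT in the labels and not shown, letters are DNA letters read 5′ to 3′, and capitals mark the seed of the antisense strand.
siRNA 3488 antisense: tTTCCGGAgacgtacttct
siRNA 3488 sense: agaagtacgtctccggaaa
scrambled control antisense: aTTACCGAgcacattggagg
scrambled control sense: cctccaatgtgctcggtaat

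The duplex of siRNA 3488 has 19 paired bases and that of the scrambled control 20. Neither antisense seed, and neither sense strand's bases 2 to 8, is the seed of any of 724 mature rat microRNAs in RefSeq, which hold 585 distinct seeds. Whether transcripts with seed matches moved was not analysed here.

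The transcript of the targeted gene was near the bottom of the range of the arrays. The single Adamts16 probe set read 12.1 and 40.4 with siRNA 3488, against 8.68, 7.18 and 18.9 in the controls, so the groups overlap. Its mean log2 signal of 3.55 lay under the level of 6.09 that a probe set had to reach to be tested. In a limma fit over all 31042 probe sets that are not controls, the change was 1.06 on the log2 scale (95% interval -1.26 to 3.39, adjusted p = 0.612). These arrays therefore give no check of the knockdown, and no direction for Adamts16.

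On every array the mean signal without the outer 2% of probe sets was 500.1 to 500.2, and the median signal ran from 128 to 139 over the 5 arrays. On the siRNA 3488 arrays the ratio of the 3′ to the 5′ probe set of beta-actin was 1.96 and 1.94, above the 1.74 to 1.79 of the control arrays, and that of hexokinase was 4.71 and 3.73 against 2.39 to 2.98. That of Gapdh lay between 0.908 and 0.948 on all 5. Of the epithelial markers, Krt8 was bright (mean signal 5963 in the controls) but Cdh1 (5.13), Epcam (19.1) and Krt18 (14.6) were near the bottom of the range. Fibroblast-type matrix genes were bright, Col3a1 at 19397 and Mfap5 at 16765, while Dcn (31.7) and Lum (3.08) were not. The summed signal of the 9 fibroblast markers was 51359 to 56590 with siRNA 3488 and 39188 to 41980 with the control. The summed signal of the 5 leukocyte markers was 473 to 512 against 325 to 361 with Cd68, a lysosomal glycoprotein, going from 230 to 364 and Ptprc at 4.73 in the controls and 3.39 with siRNA 3488. The other summed levels were 1193 to 1359 against 985 to 1140 for 9 proximal tubule genes, 241 to 336 against 208 to 339 for 8 distal nephron genes, 6617 to 7316 against 5844 to 6405 for 7 epithelial genes, 2879 to 3318 against 2545 to 2849 for 5 smooth muscle genes and 332 to 360 against 343 to 363 for 5 endothelial genes. As in any bulk RNA, fewer cells of a type and less RNA per cell cannot be told apart.

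Cells given siRNA 3488 had higher signal for genes of mitosis and DNA replication, for respiratory chain and proteasome subunits, and for a group of matrix proteins led by Mfap4. They had lower signal for the complement inhibitor Serping1 and the ligands Il33, Inhbb, Wnt4 and Wnt5a. Of 18625 probe sets tested with limma, 15.6% passed an adjusted p under 0.05, 6.89% higher and 8.74% lower. Of these, 83 rose and 111 fell at least 2-fold. By genes, each measured by its brightest tested probe set, 9.31% of 10019 were higher and 7.6% lower. The arrays of the 2 groups did not overlap for 50.3% of probe sets, so separation of the arrays alone says little of a gene. Without siRNA 3488 replicate 2 the count of calls fell from 2911 to 474, without control replicate 1 to 980, without replicate 2 to 1335 and without replicate 3 to 1748. It fell to 591 when limma's prior variance was 1 value for all probe sets and did not follow their mean signal, a setting called no intensity trend here and given beside the lists. In that setting 17 of 30 mitotic, 7 of 32 replication, 4 of 66 respiratory chain and 2 of 38 proteasome genes were called higher.

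The change depended on how bright a probe set was. In the brightest 10% of probe sets the median change was 0.15 (0.13 and 0.17 on the 2 siRNA 3488 arrays; -0.031 to 0.018 on the control arrays), while in the other 10% classes it lay between -0.13 and -0.040. The brightest class held 696 of the 1283 higher calls, 54.2% of them. The 18 hybridisation control probe sets, for bacterial and phage RNA that the array maker's protocol adds to every sample, were also higher with siRNA 3488, by a median of 0.52 (0.34 and 0.71 on the 2 arrays). To ask whether a gene moved more than equally bright ones, each array's log2 signals were also centred on the running median of probe sets of like mean signal. After this brightness centring, 1832 probe sets were called, 936 higher and 896 lower, and 1496 of them were among those called as deposited in the same direction, 51.4% of those calls and 81.7% of the centred ones. The centring kept 757 of the higher calls (59.0%) and 739 of the lower (45.4%), and turned 7. By genes, 6.64% were then called higher and 4.66% lower, against 9.31% and 7.6% as deposited. Centring each array on its median instead gave 1728 higher and 576 lower calls, against 1283 and 1628 as deposited. The part of scaling and of the brightness trend in single results was not tested, so most lists are given on both scales. The 28 pathway lists held from 15 to 79 tested genes each. Over the 28 pathway lists together, 269 entries were higher and 64 lower as deposited, 131 and 48 after brightness centring and 309 and 15 after median centring, and 64 and 6 as deposited without siRNA 3488 replicate 2.

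**Figure D1:**
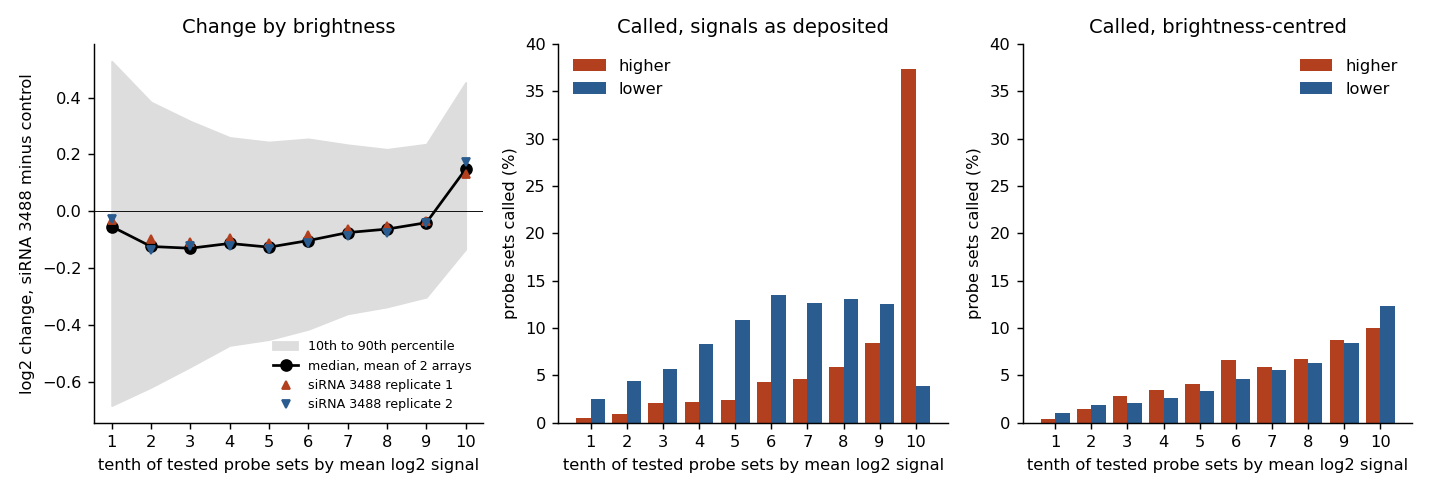
The left panel plots the median log2 change, siRNA 3488 minus control, in each 10% class of the 18625 tested probe sets by mean log2 signal, with the 10th to 90th percentile shaded and the median of each siRNA 3488 array as a triangle; the other panels plot the percent of probe sets called higher and lower in each class. As deposited, 37.4% of the brightest class were called higher and 3.87% lower, and after brightness centring 10.0% and 12.3%.

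Genes of chromosome segregation rose together and far beyond equally bright probe sets. Of 30 tested genes of the mitotic spindle, kinetochore and cytokinesis, 23 were called higher and 0 lower, with a median change of 0.64 (all genes: -0.022). After brightness centring the counts were the same and the median was 0.68, and 25 of the 30 lay above the 90th percentile of the 500 probe sets nearest in brightness. Kif20a, a kinesin of cytokinesis, read 2194 and 2403 with siRNA 3488, against 1041, 1142 and 1108 in the controls, a rise of 1.07 ± 0.082 (SE of the fit, n = 2 and 3; adjusted p = 0.00105). Both siRNA 3488 arrays lay far above the highest control array. Spc25, a subunit of the kinetochore complex that binds microtubules, read 1121 and 1137 with siRNA 3488, against 650.1, 570.3 and 653 in the controls, a rise of 0.86 ± 0.087 (adjusted p = 0.00147). Ube2c, the ubiquitin-conjugating enzyme of the anaphase-promoting complex, read 1666 and 1891 with siRNA 3488, against 1088, 1097 and 1115 in the controls (change 0.69 ± 0.075, adjusted p = 0.00176). In none of these 3 did the groups overlap. On the siRNA 2600 arrays Kif20a also read high, at 1772 and 2025. The mean change of the mitotic list was 0.51 and 0.59 on the siRNA 3488 arrays and 0.28 and 0.30 on the siRNA 2600 arrays. The list kept 17 higher calls with no intensity trend. With the list counted without 1 array at a time, 14 to 22 (14 without siRNA 3488 replicate 2) of its genes were called higher.

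DNA replication and nucleotide synthesis genes moved the same way. Of 32 tested, 18 were higher and 0 lower as deposited, median 0.36, and 20 higher after brightness centring, median 0.43; all 32 had a change above 0. Top2a, the topoisomerase that untangles replicated chromosomes, read 2979.6 and 3124 with siRNA 3488, against 1809.6, 1729 and 1726 in the controls, a rise of 0.80 ± 0.066 (limma adjusted p = 0.00111). Its second probe set rose by 0.64 (adjusted p = 0.00865). Pcna, the sliding clamp of DNA polymerases, read 7275 and 7920.1 with siRNA 3488, against 4688, 4827 and 5164 in the controls, a rise of 0.63 ± 0.077 that became 0.42 after brightness centring. Tk1, thymidine kinase, read 1308 and 1423 with siRNA 3488, against 913, 920.2 and 886 in the controls and rose by 0.59 ± 0.075. All siRNA 3488 arrays lay above all control arrays in these 3 genes. The mean change of the replication list was 0.36 and 0.42 on the siRNA 3488 arrays and 0.24 and 0.23 on the siRNA 2600 arrays. All 7 probe sets named from Kif20a to Tk1 kept their calls with any 1 of the 5 arrays left out, while the count for the replication list was 5 to 16 (5 without siRNA 3488 replicate 2), and 7 with no intensity trend. Of 18 tested targets of p53, a regulator that arrests the cycle, 0 were higher and 1 lower, Plk2.

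In the RefSeq windows from 250 bases before to 50 after the start of each gene (build GRCr8), the element TTTGAA, the cell cycle homology region or CHR, was found on either strand in 18 of 26 mitotic genes with a window (69.2%), in 18.1% of all 27457 windows and in 11.4% of the 8424 windows of tested genes. It was in 13 of the 20 mitotic genes that were called (65.0%) and in 5 of the 6 that were not. Among all genes called higher 17.2% held it and among those called lower 10.5%. The motif CCAAT, on either strand, was in 69.2% of mitotic and 60.0% of replication windows against 37.7% of all and 38.0% of tested genes. Of replication genes, the CHR was in 3 of 30 windows (10.0%) and in 1 of the 16 that were called higher (6.25%), that of Top2a. The E2F motif GCGGGAAA was in 5 of the 30 replication windows (16.7%) and in 0 of the 26 mitotic windows, against 1.03% of all windows and 2.27% of those of tested genes. The motifs do not overlap in letters as spelled, and a match is a description of the letters, not a measured site. The 250 bases before the start of Hmmr and of Top2a, each with both of its tested probe sets called higher, are shown with the CHR letters and the CCAAT letters of either strand in capitals; they lie at chr10:25665216-25665465 and chr10:84473094-84473343, both on the minus strand, written 5′ to 3′ in the direction of the gene.
Hmmr: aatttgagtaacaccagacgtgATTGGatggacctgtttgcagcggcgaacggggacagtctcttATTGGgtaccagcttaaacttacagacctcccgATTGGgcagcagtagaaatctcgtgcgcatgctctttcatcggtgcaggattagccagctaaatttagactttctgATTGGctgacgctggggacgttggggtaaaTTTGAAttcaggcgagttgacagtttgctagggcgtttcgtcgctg
Top2a: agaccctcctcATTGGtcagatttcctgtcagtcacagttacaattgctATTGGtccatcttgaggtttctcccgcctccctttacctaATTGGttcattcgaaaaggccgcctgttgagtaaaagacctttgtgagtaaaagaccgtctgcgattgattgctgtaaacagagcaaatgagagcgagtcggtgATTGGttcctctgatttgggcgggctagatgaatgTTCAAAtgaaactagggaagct

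Each of the windows of Hmmr and Top2a holds 1 CHR element, starting 46 and 22 bases before the start of the gene, and 4 CCAAT letters. Hmmr, a spindle protein also known as a hyaluronan receptor, read 787 and 856 with siRNA 3488, against 502, 456 and 499.5 in the controls on its brightest probe set.

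Of 36 cytosolic ribosomal protein genes, among the brightest on the array, 34 were called higher and 0 lower with a median of 0.46, but after brightness centring the median was -0.0047, of the opposite sign, and 2 were called. Rpl18 read 20775 and 25333 with siRNA 3488, against 15360.3, 15873 and 15969 in the controls; its change of 0.54 ± 0.082 became 0.078 (centred adjusted p = 0.190). Rpl22 (0.56) and Rpsa (0.51) likewise lost the call after centring, at 0.10 and 0.069. Of 66 subunits of the respiratory chain and ATP synthase, 46 were higher and 0 lower (median 0.33), and 27 stayed higher after centring (median 0.16). Cox6a1, a subunit of cytochrome oxidase, read 7098 and 7892 with siRNA 3488, against 4540.3, 4946 and 4976 in the controls and rose by 0.64 ± 0.071 (adjusted p = 0.00178; centred 0.43). Ndufa4, a small subunit of the chain, rose by 0.58 ± 0.078 (centred 0.29), and Uqcr10, of complex III, by 0.58 ± 0.075 (centred 0.34). Both siRNA 3488 arrays lay above the controls in all of these. Counting without 1 array at a time gave 5 to 33 (5 without siRNA 3488 replicate 2) higher calls for the ribosomal list and 9 to 45 (9 without siRNA 3488 replicate 2) for the respiratory list. With no intensity trend 2 ribosomal and 4 respiratory genes were called higher.

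Protein folding and disposal lists were divided by the same comparison. Of 38 proteasome genes 15 were higher and 0 lower, and 12 after brightness centring (medians 0.19 and 0.13); Psma5, a subunit of the core ring, read 8235 and 8845 with siRNA 3488, against 6123, 6301 and 6169 in the controls and rose by 0.46 ± 0.063 (centred 0.24), and Psmb2 rose by 0.41 ± 0.054. Of 38 genes of endoplasmic reticulum folding and translocation 15 were higher and 3 lower, but 4 and 2 after centring, where the median changed sign from 0.19 to -0.00015. Sec61a1, the channel of the translocon, rose by 0.54 ± 0.058 (centred 0.39), though its second probe set stood at -0.026 (adjusted p = 0.846), and Ssr4, a partner of that channel, by 0.48 ± 0.067. Herpud1, which links the reticulum to protein disposal, fell by 0.40 ± 0.079. Of 38 translation factors 18 were higher and 0 lower as deposited and 3 after centring, of 27 other chaperones 11 and then 0 (with 2 then lower), and of 18 glycolysis genes 7 and then 1. Pgk1, a glycolytic kinase, went from 0.53 to 0.13 (centred adjusted p = 0.194). Sod1, the superoxide dismutase of the cytosol, kept its call at 0.36. Of 26 genes of the amino acid response of ATF4, 5 were higher and 1 lower: Phgdh, the first enzyme of serine synthesis, read 1562 and 1762 with siRNA 3488, against 1183, 1125 and 968 in the controls and rose by 0.61 ± 0.099, and Chac1, which degrades glutathione, by 0.48 ± 0.083. Both were high on the siRNA 2600 arrays as well, Phgdh at 1848 and 1665 and Chac1 at 1011 and 1141. The median of the ATF4 list was 0.037, and after centring 3 were higher and 0 lower, with a median of 0.064. Its mean change was 0.073 and 0.064 on the siRNA 3488 arrays and 0.30 and 0.19 on the siRNA 2600 arrays. None of the 18 cholesterol synthesis genes was called on either scale. Of the 15 genes of synthesis and energy named, the call was lost by 3 without siRNA 3488 replicate 2 (adjusted p 0.0553 to 0.0690) and 1 without scrambled control replicate 1 (adjusted p 0.0508), and the proteasome list counted 4 to 15 (4 without siRNA 3488 replicate 2) higher calls with 1 array left out. With no intensity trend the higher calls were 2 for the proteasome, 3 for the reticulum list, 1 for translation factors, 0 for other chaperones and 2 each for glycolysis and the ATF4 response.

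**Figure D2:**
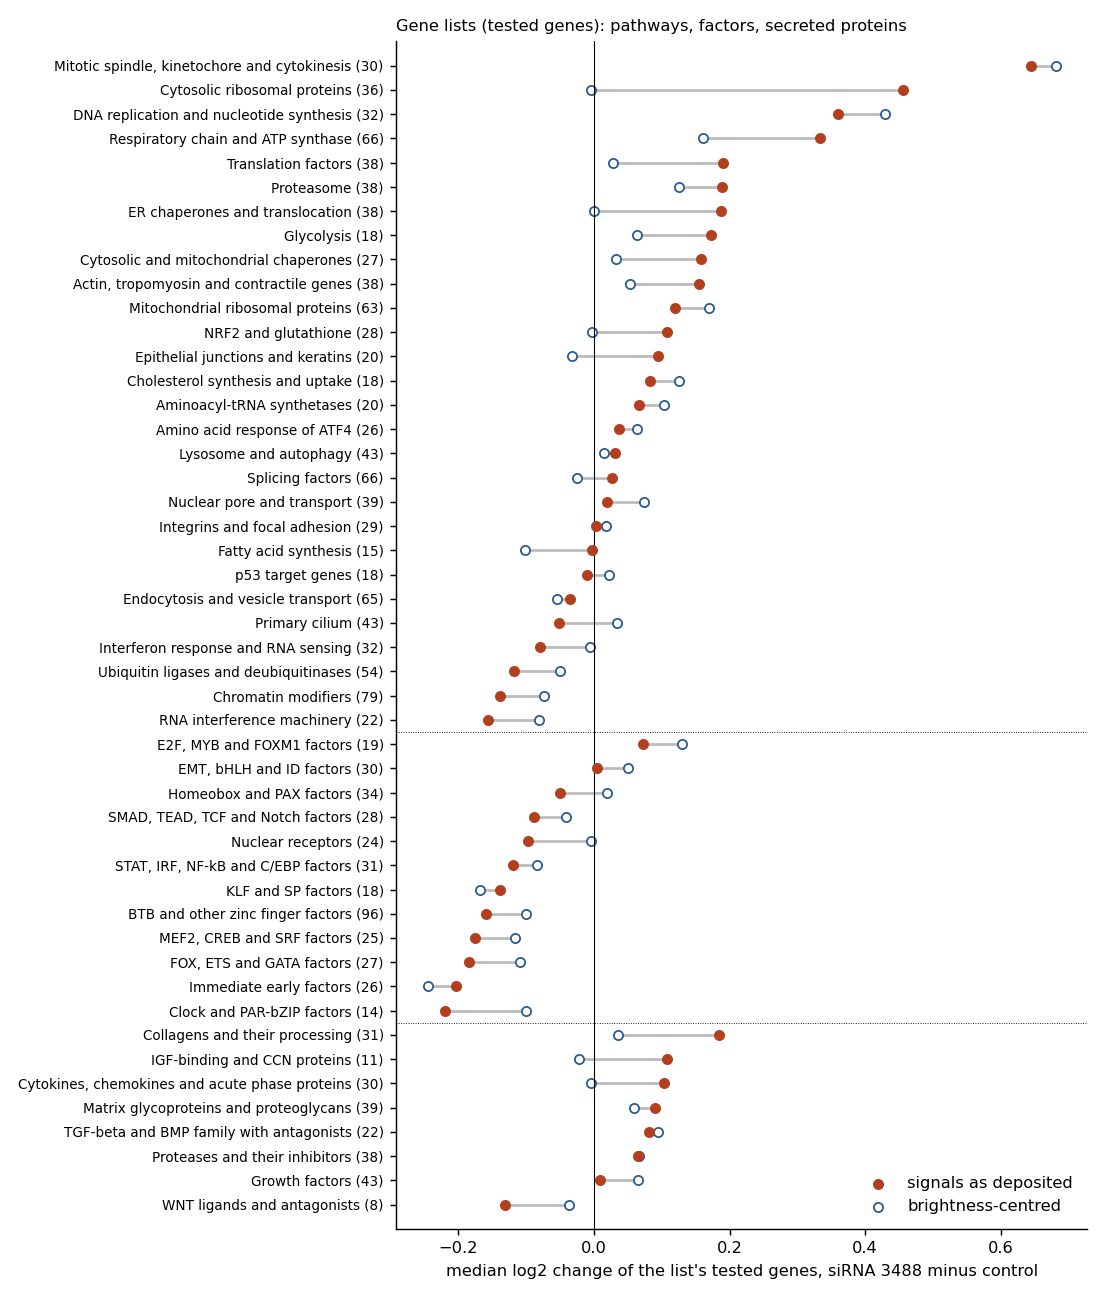
Each row is a gene list with its number of tested genes; filled points give the median log2 change, siRNA 3488 minus control, as deposited and open points the same after brightness centring. The mitotic list stands at 0.64 and 0.68, while the ribosomal list moves from 0.46 to -0.0047.

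Among enzymes that modify chromatin or degrade proteins and messages, more were called lower than higher as deposited. Of 79 chromatin modifiers 1 was higher and 14 lower, median -0.14, and after brightness centring 2 and 6, median -0.074; after median centring they were 1 and 1, median -0.043. The methyltransferase Ash1l was at -0.42 ± 0.081, the acetyltransferase Kat2b at -0.38 ± 0.073 and the demethylase Kdm2a at -0.34 ± 0.069, all called. Ezh2, the methyltransferase of the Polycomb complex, was the 1 member that rose, by 0.44 and 0.46 on its 2 tested probe sets. The brighter set lost its call with any 1 control array left out, with no intensity trend and with a block for the replicate number. Of 54 ubiquitin ligases and deubiquitinases 1 was higher and 9 lower, and 0 and 6 after centring. Usp25, a deubiquitinase, read 1649.9 and 1754 with siRNA 3488, against 2512, 2718 and 2634 in the controls, a change of -0.62 ± 0.071 (adjusted p = 0.00184). Ubr1, a ligase that reads the first residue of its substrates, read 1755 and 1513 with siRNA 3488, against 2459, 2549 and 2588 in the controls and fell by 0.64 ± 0.076. In both, the siRNA 3488 arrays lay below all 3 controls, and those of Usp25 also below the siRNA 2600 arrays (2483 and 2262). Mysm1, a histone deubiquitinase, read 500.3 and 467 with siRNA 3488, against 775, 806 and 787 in the controls and fell by 0.71 ± 0.11 (adjusted p = 0.00451), while its second probe set was at -0.080 (adjusted p = 0.694).

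Of 22 genes of RNA interference and message decay 0 were higher and 4 lower, and 1 and 3 after centring. Edc4, the scaffold of the decapping complex, read 441 and 412 with siRNA 3488, against 761, 779.8 and 771 in the controls, a change of -0.85 ± 0.13 (adjusted p = 0.00440). Cnot7, a deadenylase, fell by 0.47 ± 0.091 and the exonuclease Xrn1 fell by 0.51 ± 0.13, the latter with an adjusted p of 0.0573 after centring. Splicing factors were mixed, 10 higher and 4 lower of 66, and 4 and 7 after centring, with a median that changed sign from 0.026 to -0.025. Snrpf, of the Sm ring, read 4869 and 4767 with siRNA 3488, against 2976, 3081 and 2807 in the controls and rose by 0.71 ± 0.068, whereas Pnisr, a serine and arginine rich nuclear protein, fell by 0.54 ± 0.10 and the helicase Ddx17 fell by 0.36 ± 0.071. Usp25, Ubr1, Mysm1, Edc4 and Snrpf kept their calls under every setting run. Of the 13 genes of chromatin, turnover and RNA named here and above, the call was lost by 1 without siRNA 3488 replicate 1 (adjusted p 0.159), 8 without siRNA 3488 replicate 2 (adjusted p 0.0522 to 0.211), 2 without scrambled control replicate 1 (adjusted p 0.0508 to 0.0595), 2 without scrambled control replicate 2 (adjusted p 0.0858 to 0.0986) and 2 without scrambled control replicate 3 (adjusted p 0.0767 to 0.0810). The chromatin list counted 0 to 13 (0 without siRNA 3488 replicate 2) lower calls with 1 array left out. With no intensity trend the lower calls were 1 for chromatin, 4 for ubiquitin enzymes and 1 for RNA interference and decay, and splicing kept 1 higher call and 0 lower.

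Transport and cytoskeleton genes were called in both directions, where 9.31% of all tested genes were called higher and 7.6% lower. Ran, the GTPase that drives nuclear transport, read 11161 and 12247 with siRNA 3488, against 7550.2, 7901 and 8048 in the controls and rose by 0.58 ± 0.066 (centred 0.27); with Nup88, a nucleoporin (0.42 ± 0.058), it was among 6 of 39 nuclear pore and transport genes that rose, with 3 that fell. After centring 6 nuclear pore and transport genes were higher and 1 lower. Among 65 genes of endocytosis and vesicle transport 9 rose and 9 fell, and 2 and 6 after centring. Their median change was -0.036, against a median of -0.042 for equally bright probe sets. Vps26a, of the retromer that recycles membrane proteins, read 641 and 668 with siRNA 3488, against 1089, 1050.3 and 933 in the controls and fell by 0.64 ± 0.089; its second probe set was at -0.26 (adjusted p = 0.0810). Dnm2, the dynamin that cuts vesicles free, read 78.3 and 62.6 with siRNA 3488, against 161, 222 and 223 in the controls, a change of -1.51 ± 0.24 at a low signal (adjusted p = 0.00557). Of 38 actin and contractile genes 15 were higher and 0 lower, and 6 and 2 after centring: Tmsb4x, a protein that holds actin monomers, read 13929.5 and 16846 with siRNA 3488, against 8347, 8879 and 9227 in the controls and rose by 0.80 ± 0.095 (centred 0.42), and the tropomyosin Tpm2 by 0.54 ± 0.062 (centred 0.37). Itga6, a laminin receptor subunit, read 1501 and 1249.8 with siRNA 3488, against 1916, 1853 and 1911 in the controls and fell by 0.47 ± 0.089 and fell by 0.75 on a second probe set, while the other 2 tested sets were not called (adjusted p = 0.0534 and 0.702). Plk2, a kinase induced by p53, fell by 0.52 ± 0.091. With no intensity trend 2 nuclear pore and transport genes rose and 0 fell, 2 vesicle genes rose and 2 fell, and 3 actin and contractile genes rose. Among the 9 probe sets named here the call was lost by 3 without siRNA 3488 replicate 2 (adjusted p 0.0505 to 0.0826).

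Transcription factors were counted in 12 lists (a gene in several lists counts in each), in which 16 entries were higher and 44 lower; after brightness centring these were 12 and 37, but after median centring 24 and 13, so the balance between the directions depends on the scaling. With no intensity trend they were 2 and 7. Of the arrays left out 1 at a time, siRNA 3488 replicate 2 cost the most calls in both directions. Leaving out siRNA 3488 replicate 1 did not lower the count of falls. Leaving out control replicate 1 left 7 higher and 10 lower calls, replicate 2 left 9 and 13 and replicate 3 left 15 and 27. In every list but that of E2F, MYB and FOXM1 factors the mean change was lower on siRNA 3488 replicate 2 than on replicate 1. For the zinc finger list it was -0.098 on replicate 1 and -0.20 on replicate 2. The 12 lists held 26, 19, 25, 24, 18, 96, 34, 30, 28, 27, 31 and 14 tested genes. Of all 10019 tested genes, 9.31% were higher and 7.6% lower as deposited, and 6.64% and 4.66% after brightness centring. Among 19 E2F, MYB and FOXM1 factors 1 rose and 1 fell. E2f1, a driver of S-phase genes, read 305 and 424 with siRNA 3488, against 188, 241 and 194 in the controls and rose by 0.80 ± 0.18 (limma adjusted p = 0.0168). Rb1, the retinoblastoma protein that restrains E2F factors, read 245 and 239 with siRNA 3488, against 539, 504 and 321 in the controls and fell by 0.87 ± 0.22 (adjusted p = 0.0244), with 0.0577 after brightness centring. Control replicate 3 of Rb1 lay nearer to the siRNA 3488 arrays than to the other controls. On the siRNA 2600 arrays E2f1 read 176 and 174, below every control array.

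Of 26 immediate early factors, which respond within minutes to signals, 0 were higher and 2 lower; their mean change was 0.0026 on siRNA 3488 replicate 1 and -0.27 on replicate 2. Junb fell by 0.27 ± 0.071 (centred -0.34) and Mafk fell by 0.31 ± 0.086 (centred adjusted p = 0.0954). Of 25 MEF2, CREB and SRF factors 2 fell: Mef2a fell by 0.30 ± 0.076 and Elk3 fell by 0.31 ± 0.075, Elk3 with a centred adjusted p of 0.0689; 3 further tested probe sets of Mef2a were not called. Of 24 nuclear receptors 1 rose and 3 fell on both scales. Nr2f2, COUP-TFII, read 2725 and 2424 with siRNA 3488, against 3558, 3354 and 3533 in the controls and fell by 0.44 ± 0.075 (adjusted p = 0.00682) on the brighter of 2 probe sets, the glucocorticoid receptor Nr3c1 fell by 0.33 ± 0.074 and Nr1d2, a repressor of the clock, fell by 0.51 ± 0.10. Thra, a thyroid hormone receptor, rose by 0.55 ± 0.12 on its brightest probe set and stood at -0.015 on the next. Of 14 clock and PAR-bZIP factors 3 fell and 0 rose: Nr1d2, the period gene Per3, at 249.5 and 249 with siRNA 3488, against 388, 400.5 and 408 in the controls (-0.68 ± 0.13), and Hlf at -0.47 ± 0.12, the last with a centred adjusted p of 0.0899. Of 18 KLF and SP factors 4 fell and 0 rose, and 3 after centring. Klf11, a repressor linked to TGF-beta signals, read 894 and 692 with siRNA 3488, against 1075, 1082 and 1121 in the controls and fell by 0.47 ± 0.10 and fell by 1.13 ± 0.18 on its second probe set. Sp4 read 53.8 and 87.3 with siRNA 3488, against 154, 142 and 139 in the controls (-1.08 ± 0.25), and Klf15 (-0.47) and Klf7 (-0.61) lost the call after centring, at adjusted p 0.0642 and 0.111. Of the 17 probe sets named from E2f1 to Klf7, the call was lost by 5 without siRNA 3488 replicate 1 (adjusted p 0.0770 to 0.144), 15 without siRNA 3488 replicate 2 (adjusted p 0.0610 to 0.190), 14 without scrambled control replicate 1 (adjusted p 0.0508 to 0.130), 9 without scrambled control replicate 2 (adjusted p 0.0508 to 0.145) and 6 without scrambled control replicate 3 (adjusted p 0.0512 to 0.135).

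The longest list, 96 BTB and other zinc finger factors, had 4 higher and 19 lower, and 3 and 10 after brightness centring (medians -0.16 and -0.099). Plagl1, an imprinted zinc finger gene that restrains growth, read 5497 and 6218 with siRNA 3488, against 3437, 2719 and 3295 in the controls, a rise of 0.90 ± 0.10 (adjusted p = 0.00193), against 3601 and 4054 with siRNA 2600. Zbtb18, a repressor, read 268 and 249 with siRNA 3488, against 521, 465 and 455 in the controls and fell by 0.89 ± 0.13 (adjusted p = 0.00362); its dim second probe set was at -0.16. Zbtb22 read 155 and 106 with siRNA 3488, against 292, 263 and 241 in the controls (-1.05 ± 0.19), Yy1 fell by 0.34 ± 0.070, Zfp639 fell by 0.45 ± 0.093, and Zfp637 rose by 0.33 ± 0.064. Of 27 FOX, ETS and GATA factors 1 rose and 5 fell. Erf, an ETS repressor downstream of ERK kinases, read 902 and 805 with siRNA 3488, against 576, 512 and 527 in the controls and rose by 0.66 ± 0.11 (adjusted p = 0.00563). Gabpa, an ETS activator of respiratory genes, fell by 0.41 ± 0.090, Elf1 fell by 0.32 ± 0.072 and Foxp1 fell by 0.33 on its brightest probe set. Plagl1, Zbtb18 and Erf kept their calls under every setting run.

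Of 34 homeobox and PAX factors 1 rose and 2 fell, with a median that changed sign from -0.049 to 0.019 after brightness centring. Hoxb7 was at 0.97 ± 0.28, Hoxc4 at -0.83 ± 0.19 and Hoxb4 at -0.74 ± 0.20, the last uncalled after centring (limma adjusted p = 0.0740). Hoxb7 and Hoxb4 lost the call with any 1 control array left out, with no filter, with no intensity trend and with a block for the replicate number. Hoxc4 lost it without control replicate 1 or 2 and with no intensity trend. Of 31 STAT, IRF, NF-kB and C/EBP factors 2 rose and 3 fell. Nfkb1, the precursor of the NF-kB subunit p50, read 645 and 648 with siRNA 3488, against 895, 880.3 and 857 in the controls and fell by 0.44 ± 0.084 (adjusted p = 0.00960), and Nfkb2, its relative of the noncanonical pathway, fell by 0.84 ± 0.19 at a low signal. Atf4, the factor of the amino acid response, read 13524 and 13358 with siRNA 3488, against 9583, 10306 and 10096 in the controls; its change of 0.43 became 0.048 after centring (adjusted p = 0.580). Of 30 EMT, bHLH and ID factors 3 rose and 0 fell, and 1 and 3 after centring. Id1, an inhibitor of bHLH factors, was called at 0.29 and stood at -0.053 after centring (adjusted p = 0.373). Of 28 SMAD, TEAD, TCF and Notch factors 3 rose and 0 fell, with a median below 0 as deposited (-0.089) and above it after median centring (0.0056). Sox4 rose by 0.42 and 0.32 on its 2 brightest of 7 tested probe sets, and Tead2, a partner of YAP, by 0.28 ± 0.067. Of the 20 probe sets named from Plagl1 to Tead2, the call was lost by 3 without siRNA 3488 replicate 1 (adjusted p 0.0701 to 0.156), 15 without siRNA 3488 replicate 2 (adjusted p 0.0628 to 0.248), 10 without scrambled control replicate 1 (adjusted p 0.0513 to 0.122), 9 without scrambled control replicate 2 (adjusted p 0.0505 to 0.115) and 4 without scrambled control replicate 3 (adjusted p 0.0510 to 0.114); the zinc finger list counted 1 to 17 (1 without siRNA 3488 replicate 2) lower calls.

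**Figure D3:**
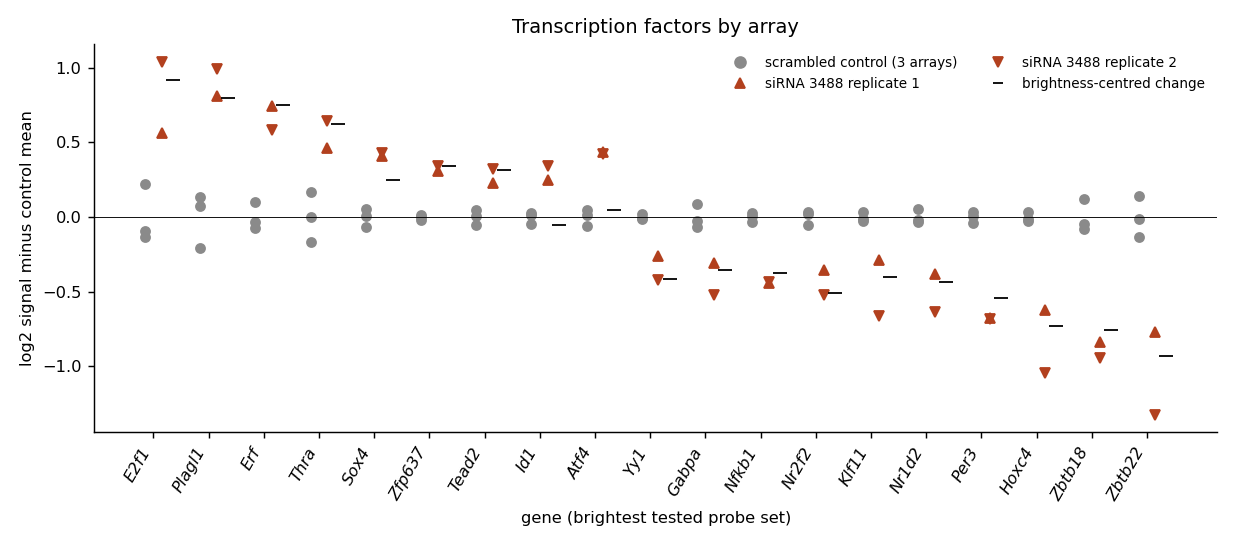
Points are the log2 signals of 19 transcription factors on each array minus the mean of the 3 control arrays, measured by the brightest tested probe set; the dash is the brightness-centred change. Plagl1 and Erf lie above and Zbtb18 and Per3 below the control arrays on both siRNA 3488 arrays, and for Id1 and Atf4 the dash lies near 0, at -0.053 and 0.048.

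A group of genes, picked after their values were seen, was high on both siRNA 3488 arrays, and also on siRNA 2600 replicate 2 relative to replicate 1 and, in most, on control replicate 3 relative to the other controls. Srebf2, the factor of cholesterol synthesis, read 1889 and 2065 with siRNA 3488, against 683, 793 and 808 in the controls and 609 and 1270.1 on the siRNA 2600 arrays. Id2, an inhibitor of bHLH factors, read 11149.7 and 13001 with siRNA 3488, against 4744, 4859.6 and 7362 in the controls and 4426 and 11884 on the siRNA 2600 arrays. Ctnnb1, beta-catenin, read 17692 and 21805 with siRNA 3488, against 9428, 9675 and 12074 in the controls and 8326 and 15386. In all 3 the siRNA 2600 arrays differ widely from each other. Other probe sets of the same genes did not show it: the second tested set of Id2 was at 0.20 (adjusted p = 0.150) and the dimmest of Ctnnb1 at 0.14 (0.278). The bZIP factor Nfe2l1 (0.96 ± 0.23), the matrix signalling protein Ccn1 (0.88 ± 0.19), the macrophage growth factor Csf1 (0.72 ± 0.19) and the cardiolipin synthase Crls1 (1.33 ± 0.32 and 2.40 ± 0.60) were called with a like order of arrays. Crls1 read 2057 and 2073 with siRNA 3488, against 738, 734 and 1029.6 in the controls and 615 and 1699 on the siRNA 2600 arrays. Of the 8 probe sets of these 7 genes, the call was lost by 6 without siRNA 3488 replicate 1 (adjusted p 0.0620 to 0.144), 8 without siRNA 3488 replicate 2 (adjusted p 0.0634 to 0.227), 7 without scrambled control replicate 1 (adjusted p 0.0617 to 0.138) and 7 without scrambled control replicate 2 (adjusted p 0.0512 to 0.120).

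Secreted proteins were counted in 8 lists of 43, 22, 8, 11, 30, 38, 31 and 39 tested genes. As deposited, 43 entries were higher and 13 lower (all tested genes: 9.31% and 7.6%). These counts were 23 and 16 after brightness centring (all tested genes: 6.64% and 4.66%) and 48 and 8 after median centring. Without siRNA 3488 replicate 2 they were 17 and 5, without control replicate 1 26 and 8, without replicate 2 30 and 9, and with no intensity trend 11 and 7. Among ligands, Cxcl13, a chemokine that draws B cells, read 1175 and 1088 with siRNA 3488, against 618, 578 and 542 in the controls, a rise of 0.97 ± 0.089 (adjusted p = 0.00120). The siRNA 2600 arrays read 818 and 867, between the groups. Pdgfa, a growth factor for mesenchymal cells, rose by 0.31 ± 0.075, and Mif, a cytokine found in most cells, by 0.46 ± 0.078 (centred 0.25). Il33, an alarm cytokine of the interleukin family, read 261 and 231 with siRNA 3488, against 457, 465 and 467 in the controls and fell by 0.91 ± 0.11 (adjusted p = 0.00233), and fell by 1.08 ± 0.16 on its second probe set. Tslp (-0.48) and Ctf1 (-0.37), also cytokines, lost the call after brightness centring at adjusted p 0.0867 and 0.0816. Of 30 cytokines, chemokines and acute phase proteins 5 rose and 3 fell, with a median that changed sign from 0.10 to -0.0041 after centring.

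In the TGF-beta and BMP family 2 of 22 rose and 1 fell. Inhbb, the beta-B subunit of inhibins and activins, read 227 and 187 with siRNA 3488, against 429, 358 and 390.3 in the controls, a change of -0.92 ± 0.14 (adjusted p = 0.00436). The siRNA 3488 arrays lay below all controls, and the siRNA 2600 arrays, at 303 and 303, between. Ltbp1, which stores latent TGF-beta in the matrix, rose by 0.26 ± 0.069. Fstl1, a secreted follistatin-like protein, read 13095 and 13678 with siRNA 3488, against 9314, 8955 and 8948 in the controls and rose by 0.56 ± 0.063 (centred 0.20), and its second probe set lost the call after centring (adjusted p = 0.156). Of 8 WNT ligands and antagonists 2 fell and 0 rose on both scales: Wnt4, a ligand of kidney tubule formation, read 196 and 179 with siRNA 3488, against 297, 279.8 and 299 in the controls (-0.64 ± 0.14), and Wnt5a read 309.8 and 296 with siRNA 3488, against 528, 442 and 433 in the controls (-0.62 ± 0.12). Both are dim, and 16 other genes of that list on the array were below the level tested. Slit2, a guidance ligand, read 2164 and 2087 with siRNA 3488, against 3214, 2823 and 2730.01 in the controls and fell by 0.46 ± 0.080 and fell by 0.34 on its second tested probe set. Of 11 IGF-binding and CCN proteins 3 rose and 1 fell, with a median that changed sign from 0.11 to -0.023. Igfbp6, which binds insulin-like growth factors, read 3263 and 3273 with siRNA 3488, against 4225, 4291 and 4522 in the controls and fell by 0.41 ± 0.062 (centred -0.52). Igfbp2 (0.37) and Ccn2, the connective tissue growth factor (0.35), were called as deposited but stood at -0.053 and -0.072 after centring. Of the 17 ligand and binding protein probe sets named from Cxcl13 to Ccn2, the call was lost by 2 without siRNA 3488 replicate 1 (adjusted p 0.0594 to 0.156), 9 without siRNA 3488 replicate 2 (adjusted p 0.0623 to 0.232), 6 without scrambled control replicate 1 (adjusted p 0.0545 to 0.120), 5 without scrambled control replicate 2 (adjusted p 0.0561 to 0.116) and 5 without scrambled control replicate 3 (adjusted p 0.0508 to 0.0821).

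Matrix proteins gave the largest named rise among secreted products. Mfap4, a glycoprotein of elastic microfibrils, read 876 and 1002 with siRNA 3488, against 332, 309 and 284 in the controls, a rise of 1.61 ± 0.13 (adjusted p = 0.00111). Its siRNA 3488 arrays lay far above all control arrays, and the siRNA 2600 arrays read 476 and 366. Eln, elastin, read 10164 and 9762 with siRNA 3488, against 6537, 6227 and 6584 in the controls and rose by 0.63 ± 0.058 (centred 0.38), while its dim second probe set, at -0.29, was not called (adjusted p = 0.282). Mgp, an inhibitor of calcification, rose by 0.57 ± 0.067 (centred 0.49) and Fn1, fibronectin, from 3126, 3144 and 3193 to 4276 and 4587, by 0.49 ± 0.060 (centred 0.41). Of 39 matrix glycoproteins and proteoglycans 13 rose and 1 fell, Thbs3 (-0.29 ± 0.065), and 7 and 1 after centring; with 1 array left out the list counted 6 to 14 (6 without siRNA 3488 replicate 2) higher calls, and 6 with no intensity trend. Of 31 collagens and their processing enzymes 9 rose and 1 fell, 4 and 2 after centring, and 1 and 0 with no intensity trend. Col1a1 rose by 0.44 and 0.41 on its 2 probe sets and kept both calls, at 0.40 and 0.44. Col3a1, one of the brightest genes, read 24439 and 28463 with siRNA 3488, against 19051, 19931 and 19209.8 in the controls; its change of 0.44 became -0.037. That of Lgals1, a secreted galectin, went from 0.43 to -0.034. Col12a1, a collagen that binds fibril surfaces, read 3306 and 3202 with siRNA 3488, against 4179, 4200.1 and 4308 in the controls and fell by 0.38 ± 0.058 and fell by 0.49 on a second probe set. The sum of the 9 fibroblast markers given above, which includes Col3a1, was also higher, and its part in the result was not tested. Of these markers 4 were tested, with a median change of 0.26, against a median of 0.225 for equally bright probe sets. After brightness centring the markers' median was -0.014 and 0 were called. The brightest genes of the sum did not move alike. Mean signal went from 19397 to 26451 in Col3a1 and from 16765 to 23395 in Mfap5, but from 4201 to 3850 in Postn, periostin. It stood at 148 and 152 in Pdgfrb, a dimmer receptor of the list.

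Among 38 proteases and inhibitors 8 rose and 3 fell, 4 and 3 after centring, and 2 and 1 with no intensity trend. Serping1, the inhibitor of the first complement protease, read 1729 and 1654 with siRNA 3488, against 2883, 3299.7 and 3772 in the controls, a change of -0.96 ± 0.098 (adjusted p = 0.00147). Both siRNA 3488 arrays lay below every other array, including those of siRNA 2600 (2901 and 2829.8), and the change was below that of all 500 probe sets of like brightness. Mmp14, the membrane-bound collagenase, read 7146 and 7681 with siRNA 3488, against 5301, 5296 and 5447 in the controls and rose by 0.47 ± 0.061 (centred 0.24); its dimmer second probe set was at 0.017 (adjusted p = 0.922). Timp1, an inhibitor of matrix metalloproteases, read 13869 and 16960.4 with siRNA 3488, against 9914, 10434 and 10851 in the controls; its rise of 0.56 ± 0.092 was 0.17 after centring (adjusted p = 0.0388). Reck, a membrane-anchored inhibitor of the same enzymes, fell by 0.42 ± 0.075, and lay lower still with siRNA 2600 (1392 and 1201). Of the 15 matrix and protease probe sets named from Mfap4 to Reck, the call was lost by 1 without siRNA 3488 replicate 1 (adjusted p 0.0595), 4 without siRNA 3488 replicate 2 (adjusted p 0.0599 to 0.0754), 1 without scrambled control replicate 1 (adjusted p 0.0699) and 1 without scrambled control replicate 2 (adjusted p 0.0508).

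**Figure D4:**
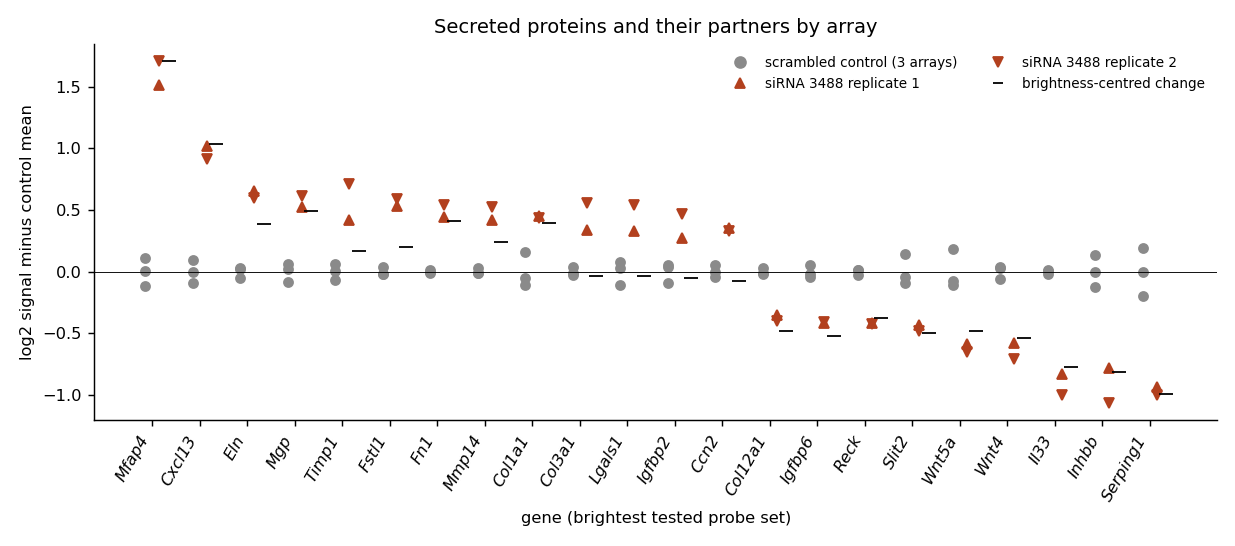
Points are the log2 signals of 22 secreted or matrix-related genes on each array minus the mean of the 3 control arrays, measured by the brightest tested probe set; the dash is the brightness-centred change. Mfap4 stands 1.61 above and Serping1 0.96 below the controls with the dash at a like height, whereas for Col3a1, Lgals1, Igfbp2 and Ccn2 the dash lies just under 0.

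Genes measured by several probe sets gave a check that 1 probe set cannot. Of 2937 genes with at least 2 tested probe sets, 44 had all of them called higher (1.5%) and 26 all lower (0.885%), 205 some higher, 555 some lower, 13 in opposite directions, and 2094 had none called. The brightest and second brightest set had changes of the same sign in 62.7% of genes, and in 423 of the 548 genes (77.2%) whose brightest set was called. Where the brightest set was called higher, the second was called higher in 57 genes (27.3%). Where it was lower, the second was lower in 55 (16.2%). Where the brightest set was not called, the second was called higher in 46 genes (1.925%) and lower in 194 (8.12%). The second set was closer in brightness where both were called (median gap 0.81 on the log2 scale) than where the brightest alone was (1.395). Pearson's r between the changes of the 2 sets across genes was 0.295, a description only, since the sets share arrays and genes are not independent. Of the 814 genes with 3 or more tested sets, 5 had all called one way. After brightness centring 30 genes had all sets higher and 13 all lower, and 31 genes agreed on both scales.

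Of the 44 agreeing rises, 6 were in the mitotic list, out of 11 of its genes with at least 2 tested sets, and 1 was in the replication list, out of 7; the same 6 and 1 were among the 24 that rose on both scales. Ccnb1, cyclin B1, read 1706 and 1754 with siRNA 3488, against 1129, 1084 and 1101 in the controls on its brightest set, and its 2 sets rose by 0.65 ± 0.068 and 0.77 ± 0.11. Cks1b, a partner of cyclin-dependent kinases, read 3673 and 3992 with siRNA 3488, against 2064, 2123 and 2191 in the controls on its brighter set, a rise of 0.85. The dimmer Cks1b set read 453 and 506, against 307, 294 and 302, a rise of 0.67, and on neither set did the groups overlap. Knstrn, a spindle protein, rose by 0.73 and 0.80, Kif11, a motor that separates spindle poles, by 0.85 and 0.63, and Nusap1, which bundles spindle microtubules, by 0.72 and 0.69. Kif2c (0.66 and 0.58), the centromere protein Itgb3bp (0.60 and 0.72), Cdca2 (0.87 and 0.56) and Hmmr (0.76 and 0.58) had both sets called higher too. Scoc, a short coiled-coil protein of the Golgi, read 2932 and 3127 with siRNA 3488, against 1770.4, 1932 and 2094 in the controls and rose by 0.65 and 0.57; it was nearly as high on the siRNA 2600 arrays, at 2903 and 3000.03.

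The agreeing falls on both scales were 7 genes of varied function. Gk, glycerol kinase, read 942 and 801 with siRNA 3488, against 1401, 1357 and 1425 in the controls on its brightest set, a change of -0.68 ± 0.088. The dimmer Gk set read 197 and 165, against 429, 741 and 772, a change of -1.80 ± 0.29 with a wide spread among the controls. Ipo8, an importin that also assists Argonaute proteins, read 681 and 601 with siRNA 3488, against 1072, 991 and 892 in the controls and fell, at -0.62 and -0.58. Tle4, a corepressor of the WNT pathway, fell, at -0.64 and -0.65, Mcl1, an inhibitor of cell death, fell, at -0.30 and -0.46, and S100pbp fell, at -0.38 and -0.55. Il33 and Slit2, given above, are the other 2. Of the 30 probe sets from Ccnb1 to S100pbp, the call was lost by 2 without siRNA 3488 replicate 1 (adjusted p 0.0639 to 0.0917), 14 without siRNA 3488 replicate 2 (adjusted p 0.0503 to 0.211), 4 without scrambled control replicate 1 (adjusted p 0.0508 to 0.0773), 4 without scrambled control replicate 2 (adjusted p 0.0522 to 0.0820) and 2 without scrambled control replicate 3 (adjusted p 0.0639 to 0.0831). The number of agreeing genes, 70 with all arrays, was 7 when siRNA 3488 replicate 2 was left out, and 21, 23 and 42 when control replicates 1, 2 and 3 were.

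**Figure D5:**
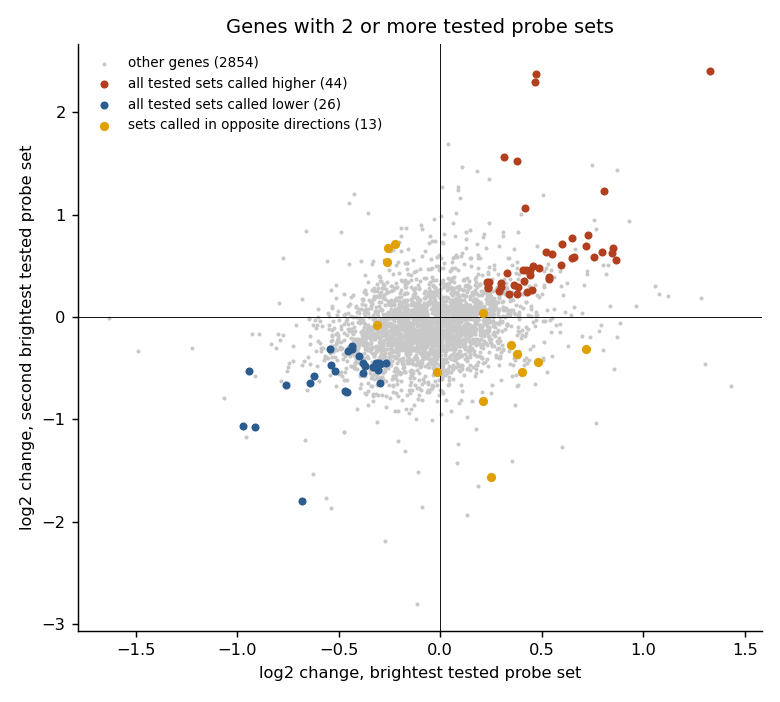
Each point is 1 of 2937 genes with at least 2 tested probe sets, placed by the log2 change (siRNA 3488 minus control) of its brightest set on the x axis and of its second brightest on the y axis. Red and blue points are the 44 and 26 genes with every tested set called higher or lower, and yellow points the 13 genes with sets called in opposite directions.

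In 13 genes the sets disagreed outright, and the 6 with the widest gap are given. In Pnp, Mtdh, Klhdc2 and Mmp24, 1 of the opposing sets was dim. Pnp, a phosphorylase of nucleoside breakdown, was at 0.25 on a bright set (control 6907, 7661 and 7409) and -1.57 on a dim one (control 167, 138 and 174). Mtdh was at -0.54 on a set with control signals of 1368, 1192 and 1264 and 1.25 on one of 47.3, 68.2 and 38.2, while its brightest set was at -0.015 (adjusted p = 0.899). Klhdc2 (0.21 and -0.82), Mmp24, a membrane-bound metalloprotease (-0.31 and 0.84), and Phf20l1 (0.71 and -0.43) were further cases. Rab14, a GTPase of endosomes, was at 0.72 on its brightest set, with the order of arrays of the Srebf2 group (3528 and 6053 on the siRNA 2600 arrays), and at -0.30 on a dimmer one. Of these 12 probe sets the call was lost by 8 without siRNA 3488 replicate 1 (adjusted p 0.0552 to 0.147), 11 without siRNA 3488 replicate 2 (adjusted p 0.0907 to 0.227), 11 without scrambled control replicate 1 (adjusted p 0.0539 to 0.151), 8 without scrambled control replicate 2 (adjusted p 0.0522 to 0.136) and 9 without scrambled control replicate 3 (adjusted p 0.0546 to 0.126). The direction of these 6 genes is not settled by the arrays.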

How the data were processed

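Every culture gave 1 array. The deposited table holds 1 intensity for each probe set on each array, on a linear scale, as the authors computed it in GCOS (version 1.4 per the submitters' processing notes). Settings for background, summary and scaling are not given in the sources, and only the values themselves show the common mean level. The table has 31099 probe sets, of which 57 are controls of the array maker and were kept out of the tests. Signals under 1 were raised to 1 and log2 was taken, with no further normalization. Probe sets in the upper 60% by mean log2 signal over the 7 arrays (a mean of at least 6.09) were tested.

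The test was limma 3.58.1 in R 4.3.3, with an intensity trend, fitted to all 3 groups so that they share 1 estimate of the spread, with Benjamini-Hochberg adjustment over all probe sets tested; a call is an adjusted p under 0.05, and changes are given ± SE of the fit. The p-values measure the spread between these cultures, and with 2 arrays the siRNA 3488 group adds little to that estimate. For brightness centring, each array's log2 signals had subtracted from them the running median, over 1001 probe sets in order of mean signal, of that array's deviation from the mean of the arrays, and the same fit was run. The percentile of a gene is taken among the 500 tested probe sets nearest to it in mean signal. Centring and percentiles describe and were not used as a chance test.

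Gene names come from the platform annotation: 20826 probe sets have 1 symbol, 436 several and 9780 none; 20758 were found by gene identifier in RefSeq and 0 changed. A gene in a list is measured by its brightest tested probe set, as the authors' intensity values give it.

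The comparison and the gene lists were chosen with earlier results of these data known. Genes named are taken from the following: in each list the called members with the lowest p in each direction (up to 4 for factors and secreted proteins, up to 3 for pathways), genes with every probe set called the same way on both scales, the 6 genes with the widest gap between opposing sets, and Adamts16; the group with Srebf2 was picked from these after its values were seen. Alternatives were quantile and median centring, no filter and the upper 40%, an offset of 32 before log2, raising signals to the filter level, no intensity trend, the 5 arrays alone, a block for the replicate number and leaving out each array. Without 1 siRNA 3488 array the remaining one is assumed to vary like the other groups. Replicate numbers are shared between groups, and the main fit did not treat the samples as paired. The correlations of same-numbered deviations were 0.0663 and 0.0190. With 2 siRNA 3488 arrays each value recurs with the opposite sign for the other array, so these values cannot decide whether the numbers pair the samples. Seed matches in transcripts were not analysed here.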

Additional observations from a re-analysis of the deposited data

Results flagged for a closer look

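The 18 probe sets for bacterial and phage control RNA, which no comparison of genes uses, were higher with siRNA 3488 than with the control, by a median of 0.52 on the log2 scale. The median deviation from the control mean was 0.34 on siRNA 3488 replicate 1 and 0.71 on replicate 2. It lay between -0.060 and 0.028 on the control arrays and was -0.079 and 0.13 on the siRNA 2600 arrays. The control probe sets are spiked at a fixed amount in the array maker's protocol, and their part in the changes of bright genes was not tested.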

How the results depend on the processing

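Of 2911 probe sets called as deposited, the count was 1832 after brightness centring, 1839 after quantile normalization, 591 with no intensity trend and 474 to 2474 with 1 array left out. The count of 1832 against equally bright probe sets was 225 with no intensity trend and 256 to 1554 with 1 array left out. The 70 genes with all probe sets called one way became 43 after brightness centring, 45 after quantile normalization, 35 with no filter, 8 with no intensity trend and 7 to 48 with 1 array left out. With the replicate block the 3 counts were 2721, 1748 and 61, and whether the numbers pair the samples was not settled. Of 163 named probe sets, 55 kept their call and direction under every one of the 15 settings in which they were tested. The named sets were picked for their calls in the main fit, so this share does not describe all calls. The 30 sets from Ccnb1 to S100pbp, with 15 of the 55, also had to be called after brightness centring to be named. For them that setting is no check. Leaving out siRNA 3488 replicate 2 cost more calls than any other setting. The call was lost by 88 with no intensity trend and 32 after median centring. It was lost by 56 without control replicate 1, 45 without replicate 2 and 28 without replicate 3. The direction turned for Id1 (-0.053 after brightness centring, -0.032 after quantile normalization), Igfbp2 (-0.053 and -0.059), Ccn2 (-0.072 and -0.043), Col3a1 (-0.037 and -0.026) and Lgals1 (-0.034 and -0.015), and for the brightest Pnp probe set after quantile normalization (-0.018). All are bright genes, and the part of the brightness trend in these turns was not tested. Adamts16 lay under the filter, where signal over background limits any statement.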

Other observations

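Of 63 mitochondrial ribosomal proteins, 12 were higher and 2 lower as deposited and 6 and 0 after brightness centring, with medians of 0.12 and 0.17. The median was also above 0 after quantile normalization (0.16) and median centring (0.21), and 53 of the 63 lay above the median of equally bright probe sets. With no intensity trend 0 were called, and without siRNA 3488 replicate 2 none was higher and 1 was lower as deposited. Of 20 aminoacyl-tRNA synthetases 2 were higher as deposited and 0 after centring. Of 43 lysosome and autophagy genes 8 were higher and 1 lower as deposited but 1 and 6 after centring. Of 28 genes of the NRF2 response and glutathione 6 were higher and 0 lower, and 1 and 1 after centring, where the median turned from 0.11 to -0.0028.

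Of 32 genes of the interferon response and RNA sensing, which cells can raise against foreign duplex RNA, 1 was higher and 2 lower as deposited and 3 and 0 after brightness centring. Their median was -0.080 as deposited, -0.0052 after centring and 0.015 after median centring. Both groups received a duplex. Of 43 primary cilium genes 1 was higher and 5 lower, and 1 and 1 after centring, where the median turned from -0.052 to 0.033. Of 29 integrin and focal adhesion genes 2 were higher and 3 lower, and of 20 genes of epithelial junctions and keratins 2 and 2. The shares of genes called over the whole array, 9.31% higher and 7.6% lower as deposited, stand beside these counts.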
